A study of Arabidopsis thaliana with 4 samples.

Results

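The WRKY family holds plant transcription factors that bind DNA through a WRKY domain, named after a short amino acid motif that a zinc finger follows. Most members recognise a promoter element called the W-box, and many are switched on by pathogens, wounding, senescence or nutrient shortage, often below mitogen-activated protein kinase cascades. Several WRKY genes carry W-boxes in their own promoters and control themselves or each other. The family is divided into group I, with a WRKY domain in both the N-terminal and the C-terminal part, group II, with a single domain and subgroups IIa to IIe, and group III, whose zinc finger is of another type.

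The genes described here were taken by name. They are those whose symbol is WRKY followed by a number, in the platform annotation or in RefSeq, and for which the annotation names a probe set (short oligonucleotides that together read the transcript) for that gene alone. RefSeq lists 67 such symbols, and 6 of them had a probe set of their own, out of 13355 genes that did. They were WRKY20 of group I, WRKY6, WRKY42 and WRKY47 of subgroup IIb, WRKY22 of subgroup IIe and WRKY53 of group III. The remaining 61 are not analysed here, since their RNA may be read by the 8730 probe sets without a gene name here or by the 503 named for several genes. No member of subgroups IIa, IIc or IId was among the 6, so these values describe a small sample of the family. Each of the 6 had 1 probe set.

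RNA was measured on 4 Affymetrix Arabidopsis arrays from whole Columbia seedlings 14 days old, 2 arrays labelled 35S:OsGSTU4 and 2 labelled WT. By the sample records the seedlings grew on MS medium under control conditions with 16 h of light and 8 h of darkness. The study's methods give a light period of 14 h instead. In the transgenic plants the constitutive CaMV 35S promoter drives OsGSTU4, a tau class glutathione S-transferase gene of rice. The labels call this group GST-overexpression and name no line, while the study describes 1 homozygous line selected on kanamycin for its arrays. A sentence of the submitters' design text speaks of a GRX line instead. The annotation lists no probe set of the rice gene, so which plants the arrays hold could not be checked. The submitters count the arrays of a genotype as biological replicates. The study's methods call the replicates independent but give more of them per genotype than the arrays described here, and the labels do not say how these arrays relate to them, so p-values measure the spread between these arrays only. Both shoot and root RNA were present, as the Rubisco activase gene RCA had log2 signals of 14.59 and 14.87 in 35S:OsGSTU4 and 14.40 and 14.74 in WT, and the root β-glucosidase gene PYK10 had 13.30 and 13.20 in 35S:OsGSTU4 and 13.47 and 13.50 in WT.

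Values are the authors' log2 signals, in which 1 unit is a fold of 2. The median probe set stood at 7.41 and 7.42 on the arrays labelled 35S:OsGSTU4 and at 7.29 and 7.37 on those labelled WT. A signal also depends on the oligonucleotides of its probe set, so levels are compared between arrays and not between genes. Differences are given as 35S:OsGSTU4 minus WT. They run against the direction of the study, so the groups are called by their labels. The signs were opposite at all 63 probe sets of the printed list of changed genes, which holds none of the 6 WRKY genes.

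Among the 6 WRKY genes, the mean log2 signal in 35S:OsGSTU4 was lower than in WT for WRKY53, WRKY6, WRKY22 and WRKY20 and higher for WRKY42 and WRKY47. With the direction turned, these 4 would be the higher ones. The differences ran from -0.55 at WRKY53 to 0.83 at WRKY42, with a median of -0.20, beside a median of 0.04 over all 13355 genes. A lower mean in 35S:OsGSTU4 was found at 4 of the 6 WRKY genes, and at 46.4% of all genes. The thresholds of the study are a fold of 2 or more and a P of 0.05 or less. With P taken unadjusted from limma, which draws the variance of each probe set towards a value shared by all, none of the 6 passed them. Both thresholds together took 5.20% of all genes and 0.502% of those brighter than the median probe set, where 5 of the 6 WRKY genes lay. The P alone, which 6.27% of all genes met, was not met by any of the 6. At an adjusted p under 0.05 in limma 0.00% of all genes were called, and the smallest adjusted p of any probe set was 0.378. For all 6 genes the 95% interval of the difference included 0. An exact permutation test of 2 arrays against 2 cannot give a p below 0.333, so none was run for single genes.

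**Figure D1:**
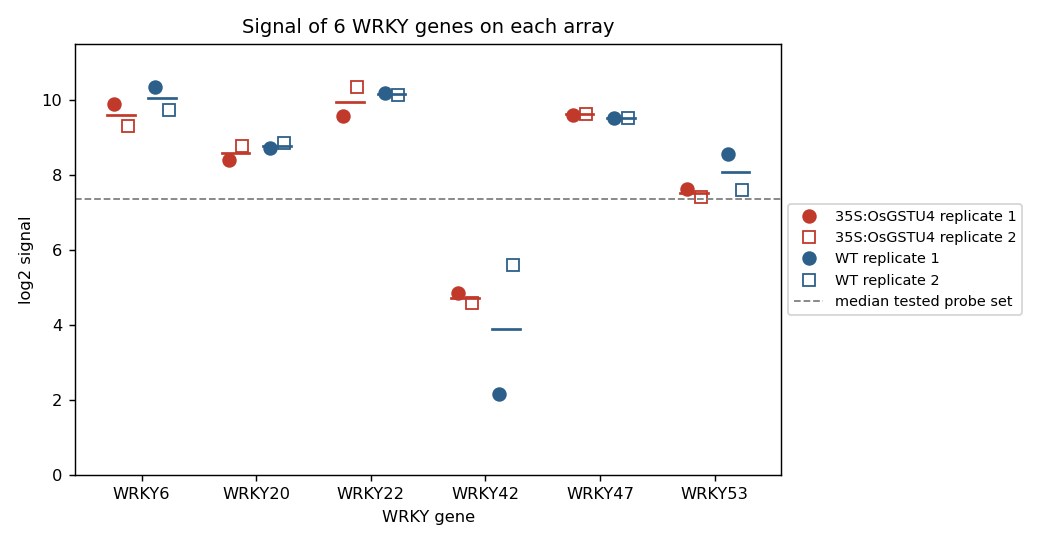
Log2 signal of the 6 WRKY genes (vertical axis, log2 units) on each of 4 arrays, with 35S:OsGSTU4 in red left of WT in blue, filled circles for replicate 1, open squares for replicate 2 and short lines for means of 2 arrays. The arrays of both genotypes overlap at every gene except WRKY47, and WRKY42 alone lies below the dashed median of tested probe sets at 7.35.

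WRKY20 is a group I member. Its log2 signals were 8.41 and 8.77 in 35S:OsGSTU4 and 8.73 and 8.85 in WT. Replicate 1 of 35S:OsGSTU4 was the lowest array and replicate 2 lay between the WT arrays, so the groups overlapped. The difference was -0.20 (standard error 0.26, 95% interval -0.96 to 0.57), a fold of 0.872 with an interval of 0.513 to 1.48. On the values as deposited this interval left out a fold of 2 in either direction. The difference was larger with centred arrays, at -0.28 (standard error 0.26), and with quantile normalization, at -0.25 (0.26). That a fold of 2 is left out is therefore stated for the deposited values only. Without 35S:OsGSTU4 replicate 1 the difference was -0.02, and it was -0.37 without replicate 2 of that genotype.

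In subgroup IIb, WRKY6 acts in senescence, defence and the response to low phosphate, where it represses the phosphate exporter gene PHO1. WRKY6 had log2 signals of 9.89 and 9.30 in 35S:OsGSTU4 and 10.36 and 9.73 in WT. In both genotypes replicate 1 was the higher array, and replicate 1 of 35S:OsGSTU4 stood above replicate 2 of WT. The gap between replicates, 0.59 in 35S:OsGSTU4 and 0.63 in WT, exceeded the difference between genotypes of -0.45 (standard error 0.39, 95% interval -1.62 to 0.72). Without WT replicate 1 this difference was -0.14, and without WT replicate 2 it was -0.77. It was -0.75 and -0.16 without replicate 1 and replicate 2 of 35S:OsGSTU4.

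WRKY42, a relative of WRKY6 that also controls phosphate transport, was the dim member. Its log2 signals were 4.85 and 4.58 in 35S:OsGSTU4 and 2.17 and 5.60 in WT. The WT arrays were the lowest and the highest of the 4 and enclosed both 35S:OsGSTU4 arrays. The difference of 0.83 had a standard error of 1.33 and a 95% interval of -3.12 to 4.78, which leaves both a large increase and a large decrease possible. Its direction rested on WT, at -0.88 without WT replicate 1 and 2.55 without WT replicate 2. In the second case WRKY42 passed the thresholds of the study (adjusted p = 0.445 from limma, with the lone WT array taken to vary like the other group). That value is set against the WT signal of 2.17, below which 9.44% of the probe sets on that array lay, and no detection calls were used here. Whether that signal was above background is unknown, so 2.55 gives no reliable size of a difference. At probe sets with a mean signal within 0.5 of its own, 66.2% had a smaller pooled SD, so a spread of this size was common at this brightness.

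WRKY47, the other member of subgroup IIb, differed least and varied least. Its log2 signals were 9.61 and 9.64 in 35S:OsGSTU4 and 9.52 and 9.53 in WT, a range of 0.12 over all arrays. Both 35S:OsGSTU4 arrays stood above both WT arrays, the one case among the 6 genes in which the groups did not overlap, as was so for 36.8% of all genes and for 20.7% in this direction. The difference was 0.10 (standard error 0.22, 95% interval -0.54 to 0.74), a fold of 1.07 with an interval of 0.687 to 1.67. Its pooled SD of 0.0135 was smaller than that of nearly all the 2672 probe sets of like signal, of which 0.337% had a smaller one. With a Student t-test, which uses the spread of each gene alone, WRKY47 was under 0.05 before adjustment. That test gave it an adjusted p = 0.761 over all probe sets, beside an adjusted p = 0.948 from limma. The study's methods name the Student t-test beside its plant assays and name no test in their account of the arrays. With each array centred on its median the difference was 0.02.

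**Figure D2:**
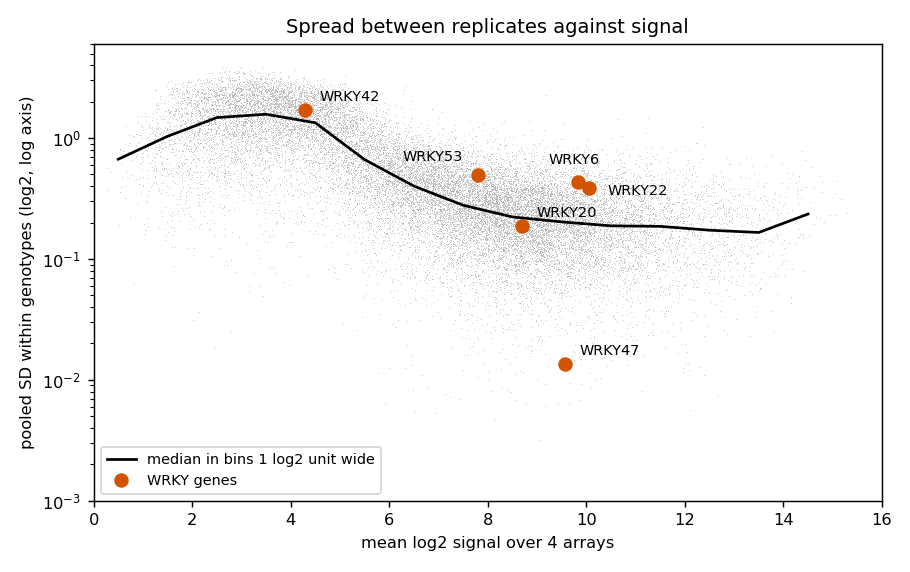
Pooled SD within genotypes (vertical log axis, log2 units) against mean log2 signal over 4 arrays for all tested probe sets with a pooled SD above 0 (grey), with the median per bin of 1 log2 unit (line) and the 6 WRKY genes (orange). WRKY47 lies far below the line at 0.0135, WRKY20 lies near it at 0.186, and WRKY53, WRKY6 and WRKY22 lie above it at 0.491, 0.432 and 0.388.

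WRKY22, of subgroup IIe, works in immunity downstream of the kinase cascade that flagellin perception activates, and also in leaf senescence. Its log2 signals were 9.57 and 10.34 in 35S:OsGSTU4 and 10.20 and 10.14 in WT. The WT arrays lay within 0.06 of each other and the 35S:OsGSTU4 arrays lay on either side of them, 0.77 apart. The difference of -0.21 (standard error 0.37, 95% interval -1.30 to 0.88) was smaller than that gap. Its sign rested on 1 array, as it was 0.18 without 35S:OsGSTU4 replicate 1 and -0.60 without replicate 2 of that genotype. Of the 2086 probe sets of like signal, 88.8% had a smaller pooled SD.

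WRKY53, of group III, promotes leaf senescence, responds to hydrogen peroxide and takes part in basal defence. Its log2 signals were 7.62 and 7.43 in 35S:OsGSTU4 and 8.55 and 7.59 in WT. WT replicate 1 stood apart from the other arrays, while WT replicate 2 lay between the arrays of 35S:OsGSTU4. The difference was -0.55 (standard error 0.43, 95% interval -1.83 to 0.73), a fold of 0.683 with an interval of 0.281 to 1.66. It was -0.07 without WT replicate 1 and -1.03 without WT replicate 2 (adjusted p = 0.650 from limma). The gap of 0.96 between the WT arrays was larger than the difference between genotypes, and 88.1% of the 3116 probe sets of like signal had a smaller pooled SD. In the RefSeq annotation WRKY53 overlaps the neighbouring gene 3xHMG-box2, which encodes a chromatin protein of dividing cells and whose own probe set is given below with the other neighbours.

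**Figure D3:**
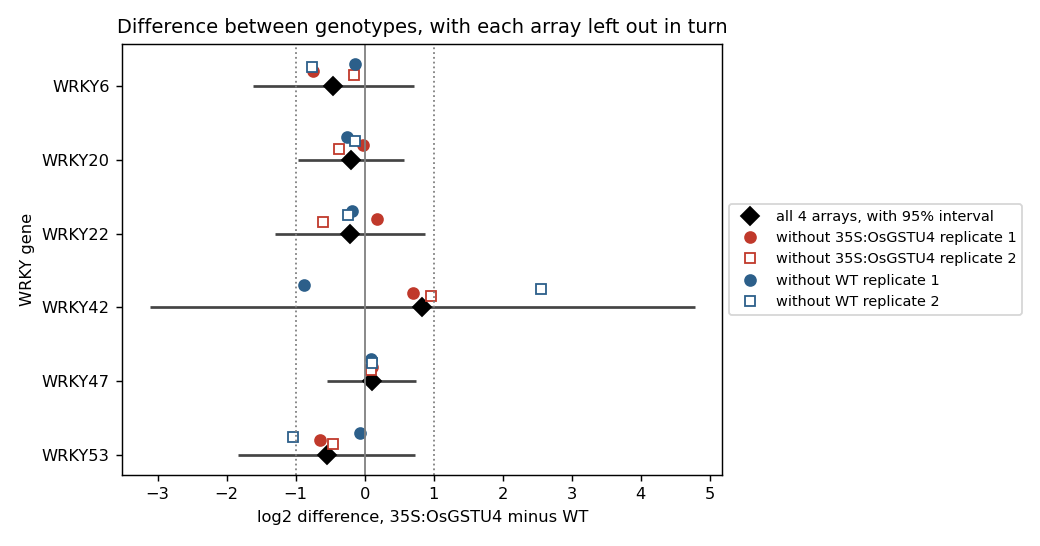
Log2 difference of each WRKY gene, 35S:OsGSTU4 minus WT (horizontal axis), with all 4 arrays (diamond, line for the 95% interval of limma) and without each array in turn (red for 35S:OsGSTU4, blue for WT, filled circles for replicate 1 and open squares for replicate 2). Every interval crosses 0, those of WRKY20 and WRKY47 stay within the dotted lines at a fold of 2, and WRKY42 moves between -0.88 and 2.55 with the WT array left out.

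The arrays did not order the 6 genes in one way. WRKY6 and WRKY53 were highest on WT replicate 1, WRKY20 and WRKY42 on WT replicate 2, and WRKY22 and WRKY47 on 35S:OsGSTU4 replicate 2. The lowest array was 35S:OsGSTU4 replicate 1 for WRKY20 and WRKY22, 35S:OsGSTU4 replicate 2 for WRKY6 and WRKY53, and WT replicate 1 for WRKY42 and WRKY47. WT replicate 1, where WRKY6 and WRKY53 peaked, had the lowest median signal of the 4 arrays. At 5 of the 6 genes the larger gap between replicates exceeded the difference between genotypes, with WRKY47 as the exception. The median of the 6 differences ran from -0.27 to 0.05 when each array was left out, with the positive value without 35S:OsGSTU4 replicate 1. Beside these differences, the actin control read at its 3′ end exceeded the one read at its 5′ end, a gap that widens in degraded RNA. This gap was 4.07 and 3.76 in 35S:OsGSTU4 and 3.48 and 3.53 in WT. For the GAPDH control it was 1.05 and 1.36 in 35S:OsGSTU4 and 1.01 and 0.96 in WT. The part of RNA quality in the WRKY differences was not tested. Of 6 marker genes of green tissue 3 were measured, all with higher means in 35S:OsGSTU4 (by 0.13 to 0.87), and PYK10, the 1 root marker of 6 measured, differed by -0.23. The part of tissue makeup was not tested, and fewer cells of a type and less RNA per cell cannot be told apart in RNA from whole seedlings.

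Of 37 genes that act with WRKY proteins or below them, 4 were measured, and none passed the thresholds of the study. VQ proteins bind WRKY factors through a short motif. Of 7 such genes 2 were measured, both with a lower mean in 35S:OsGSTU4. The VQ gene VQ10 (AT1G78410) had log2 signals of 6.31 and 5.94 in 35S:OsGSTU4 and 7.64 and 6.22 in WT. WT replicate 1 was the highest array, as at WRKY6 and WRKY53, while the other VQ gene, IKU1, was highest on WT replicate 2. VQ10 differed by -0.80 (standard error 0.60), or by -0.09 without WT replicate 1 and -1.51 without WT replicate 2, the last past the thresholds of the study (adjusted p = 0.582 from limma). IKU1, a VQ gene that sets seed size, differed by -0.21 (0.55), with overlapping arrays, but by 0.26 without 35S:OsGSTU4 replicate 2 and by 0.28 when WT replicate 2 was left out.

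Of 15 immune genes under the control of WRKY factors 2 were measured, the jasmonate- and ethylene-responsive defensin gene PDF1.2 at -0.42 (standard error 0.51) and SAG101, which encodes a partner of the immune regulator EDS1, at 0.08 (0.29). Arrays of the 2 genotypes overlapped at both, while they did not at 36.8% of all genes. The sign of PDF1.2 turned without 35S:OsGSTU4 replicate 2, at 0.17, and that of SAG101 without WT replicate 2, at -0.16, without 35S:OsGSTU4 replicate 1, at -0.02, and with each array centred on its median, at -0.01. None of the 9 listed genes of the kinase cascades and none of the 6 listed genes of phosphate transport and development had a probe set of its own, so PHO1 is not analysed here. Among 25 genes with senescence in a RefSeq name, a list set after the annotation was read, 2 were measured, SAG101 and the sugar transporter gene SAG29. SAG29 had log2 signals of 5.66 and 6.32 in 35S:OsGSTU4 and 6.48 and 2.15 in WT, so the WT arrays enclosed the others as they did at WRKY42, though here WT replicate 2 was the low one.

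The genes next to the WRKY genes in the RefSeq gene order were read as well. Of 12 flanking protein-coding genes 8 were measured, 5 with a higher and 3 with a lower mean in 35S:OsGSTU4, and 1 passed the thresholds of the study, beside 5.20% of all genes. The one past them was AT4G01240, which precedes WRKY22, with log2 signals of 6.18 and 5.83 in 35S:OsGSTU4 and 4.72 and 5.27 in WT. It differed by 1.01 (adjusted p = 0.857 from limma), just past a fold of 2, whereas WRKY22 had -0.21. The gene that overlaps WRKY53, 3xHMG-box2, had log2 signals of 9.43 and 9.71 in 35S:OsGSTU4 and 9.27 and 8.98 in WT. Its arrays did not overlap, as at every measured neighbour except AT4G26650 and AT4G23820, and at 36.8% of all genes. The difference of 3xHMG-box2, 0.45 (standard error 0.27), had the opposite sign to that of WRKY53. CRK, which precedes WRKY47 and encodes a subunit of an actin-nucleating complex, differed by -0.29 (0.22), and AT4G01730 on the other side by 0.72 (0.39), so WRKY47 at 0.10 lay between its neighbours.

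**Figure D4:**
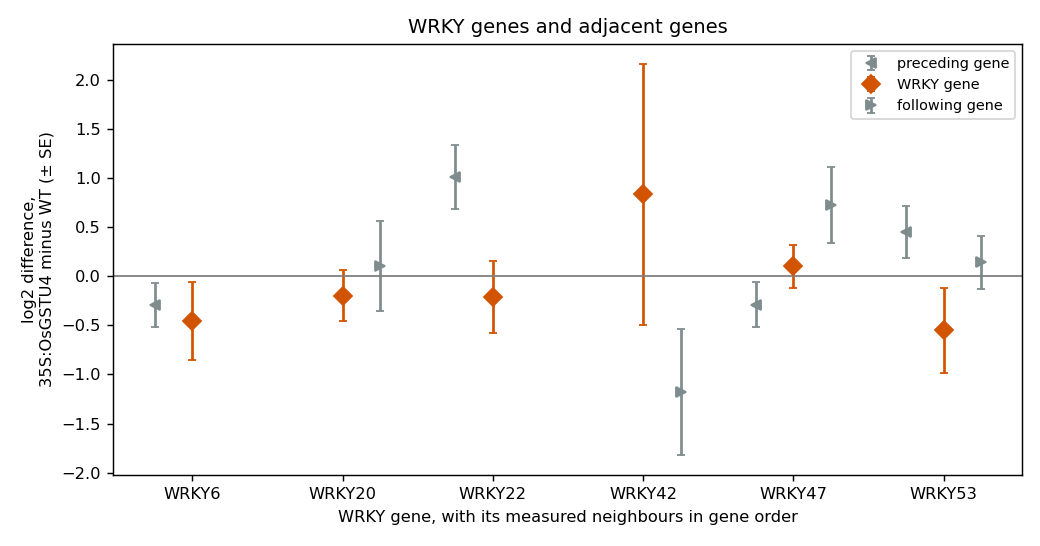
Log2 difference, 35S:OsGSTU4 minus WT (vertical axis, with the standard error of limma), of each WRKY gene (orange diamonds) and of the measured genes that precede or follow it in RefSeq gene order (grey triangles). AT4G01240 before WRKY22 is highest among the neighbours at 1.01 and AT4G04460 after WRKY42 is lowest at -1.18.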

How the data were processed

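RNA of 4 seedling samples was labelled with the GeneChip 3′-IVT express kit and read on Affymetrix arrays. The authors deposited a log2 signal for each probe set on each array. The submitters' processing notes name RMA, with no version, but the deposited log2 values are not on an RMA scale. On each array the linear signals between percentiles 2 and 98 averaged 499.8, as a global scaling leaves them, and from 17 to 167 probe sets stood at 0. The number of arrays limits the precision.

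Of 22810 probe sets 64 controls were left out and 22746 were fitted as deposited with limma 3.58.1 in R 4.3.3, without a filter or a replicate block, with Benjamini-Hochberg adjustment over all of them. The fit was tested on simulated data. Probe sets with 1 gene numbered 13513, of which 13436 were tied to RefSeq (TAIR10.1) by Entrez ID, and the brightest probe set stood for a gene. All 6 WRKY genes are named, since the naming rule includes the 6 brightest members. Members and lists were chosen with earlier results of these data known. Alternatives were centred arrays, quantile normalization, a filter at the median signal, an intensity trend and a Student t-test. Others were a replicate block, each array left out, averaged probe sets and other thresholds. Figures were drawn with matplotlib 3.10.9. No sequences are shown, and the study's PCR, enzyme and growth assays are not analysed here.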

Additional observations from a re-analysis of the deposited data

How the results depend on the processing

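Centring, quantile normalization, the intensity trend, the Student t-test and the filter at the median signal each left 0 WRKY genes past the thresholds. They also left 0 of the partner and target genes. That filter left out WRKY42 and, among the partner and target genes, VQ10. Averaged probe sets left 0 of both as well, but the signals of the 6 genes were unchanged there, as each had 1 probe set. A fold of 1.5 and an adjusted p under 0.05 also left 0 WRKY genes but could not add any. In the main limma fit of all 4 arrays none of the 6 met the unadjusted P alone. The smallest adjusted p of any probe set in that fit was 0.378. With the intensity trend 2 probe sets had an adjusted p under 0.05 from limma, neither from the 6 WRKY genes. The Student t-test put WRKY47 under 0.05 before adjustment, as given above. When each array was left out, 1 genotype was left with 1 array, and more probe sets passed than in the fit of all 4 arrays. Only without WT replicate 2 did genes described here pass, WRKY42, there set against 1 dim WT signal, and VQ10, at -1.51. Directions turned at WRKY42, which had -0.88 without WT replicate 1 and 2.55 without WT replicate 2, and at WRKY22, which had 0.18 without 35S:OsGSTU4 replicate 1 and -0.60 without its replicate 2. The cause was not tested. Between 3 and 5 of the 6 genes had a lower mean when each array was left out. Under the other alternatives 4 did, out of 5 genes with the filter at the median signal and out of 6 otherwise. Arrays with the same replicate number shared little deviation (correlation 0.05 across probe sets). The labels do not say whether they shared a batch, and this was not tested. With the replicate block 0 WRKY genes passed, and WRKY53 had -0.55 with a standard error of 0.35. The standard error of WRKY6 was 0.24 with the block and 0.39 without it. That of WRKY47 was 0.24 with the block and 0.22 without it. Over all probe sets 1074 passed the thresholds. The count was 1301 with the block, 96 above the median signal, 583 with the intensity trend and 479 with the Student t-test. With 2 arrays per genotype, the intervals on the values as deposited left a fold of 2 possible at 4 of the 6 genes.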

Other observations

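ZAP1, the group I gene that RefSeq also lists as WRKY1, was not taken by its symbol and was looked at after the annotation had been read. Its log2 signals were 8.34 and 8.80 in 35S:OsGSTU4 and 8.74 and 8.87 in WT, with a difference of -0.24 (standard error 0.28, adjusted p = 0.905 from limma). As at WRKY20, the other group I gene measured, 35S:OsGSTU4 replicate 1 was the lowest array and WT replicate 2 the highest.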
